A study of Mus musculus with 4 samples.

Results

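The genes described are 80 mouse regulators of chromatin and DNA methylation, of 22326 genes with a named probe on the array. They were chosen by gene name: the DNA methyltransferases (Dnmt), the TET dioxygenases (Tet1, Tet2 and Tet3), the histone deacetylases (Hdac), sirtuins (Sirt), lysine demethylases (Kdm), chromobox proteins (Cbx), SMARC and CHD remodelling proteins, and 7 further polycomb proteins (Ezh1, Ezh2, Eed, Suz12, Bmi1, Ring1 and Rnf2). The rule goes by gene names and by no measured value, and each gene is described by its brightest probe unless another is named. RNA came from 4 cultures, each on 1 single-colour array. NSCL61-Ceacam1sh is the NSCL61 cell line with a short hairpin RNA against Ceacam1, an adhesion molecule of the cell surface, and its reference is NSCL61 itself. NSC-Ceacam1L is neural stem cells with added Ceacam1L, the long form of the same molecule, and its reference is NSC. The labels give all 4 cultures the same p53-/- genotype, brain as the tissue and E14.5 embryo as the age. NSCL61 is known to form gliomas and to derive from p53-deficient neural stem cells given an oncogenic HRas, an allele that the labels do not list. The labels describe serum-free culture, vector transfection and 1 week of hygromycin selection. They do not say whether NSC and NSCL61 carried an empty vector. Ceacam1 could not be checked, since no probe measured it separately, so hairpin and overexpression are named here as labelled. The study asked which genes lie downstream of Ceacam1.

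With 1 array per culture there was no test, and culture, array and condition cannot be told apart. Levels are log2 processed signals minus the array's own 75th percentile, so that 0 is the 75th percentile of that array. A difference is counted from 2-fold (1.00 on the log2 scale) when the brighter array was well above background. The ± is the scanner's modelled spot error on the log2 scale. It covers the reading of the spots only and not the spread between cultures.

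DNA methyltransferases place methyl groups on cytosine: Dnmt1 copies existing methylation after replication, Dnmt3a and Dnmt3b add it at new sites, and TET enzymes oxidise it towards removal. Polycomb repressive complex 2 (PRC2), with Ezh1 or Ezh2 as its enzyme, methylates lysine on histone H3. Polycomb repressive complex 1 (PRC1) ubiquitinates histone H2A, and it reads the PRC2 mark on histone H3 through its Cbx subunits. Deacetylases and demethylases remove histone marks, and SWI/SNF, ISWI and CHD proteins move or remodel nucleosomes with energy from ATP. In neural stem cells these systems are known for keeping lineage genes silent and for opening them as the cells differentiate.

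The probes are 60 bases long, and coordinates are those of the array files, on mm9. Of the probes chosen, those below are mapped over a span longer than themselves, so that their signal reads spliced RNA across an exon junction. They are shown for the maintenance methyltransferase Dnmt1, the remodeller Chd1, the SWI/SNF subunit Smarcd3 and the deacetylase Hdac8, at chr9:20711973-20712341 (minus strand), chr17:15901939-15903307 (plus strand), chr5:24098592-24098863 (minus strand) and chrX:99503070-99597969 (minus strand).
Dnmt1: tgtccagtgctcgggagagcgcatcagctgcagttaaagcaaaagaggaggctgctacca
Chd1: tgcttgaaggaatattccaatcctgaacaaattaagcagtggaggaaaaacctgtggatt
Smarcd3: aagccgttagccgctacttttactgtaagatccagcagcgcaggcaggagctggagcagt
Hdac8: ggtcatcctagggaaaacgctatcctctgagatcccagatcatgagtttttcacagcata

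Most of these genes were measurable in all cultures. Of the 80, 76 were well above background on NSCL61-Ceacam1sh, 79 on NSCL61, 78 on NSC-Ceacam1L and 77 on NSC. On all 4 arrays together the share was 95.0% of these genes, against 55.9% of all named genes. Kdm5d, a Y-linked demethylase, was not well above background on any array. Chd5, Dnmt3l and Kdm4d were well above background on some arrays only. The genes were read by 135 probes, and 33 of the genes had more than 1.

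The hairpin comparison had the most members past 2-fold. For NSCL61-Ceacam1sh minus NSCL61, 10 of 79 evaluated members were higher and 21 were lower by 2-fold or more. Over all named genes the same rule called 23.5% higher and 24.2% lower. The members' shares were 12.7% and 26.6%, the second of them near the share of all genes. The median difference of the members was -0.26, against 0.01 over all genes evaluated. For NSC-Ceacam1L minus NSC, 6 of 78 members were higher, beside 10.5% of all genes, and 1 was lower, beside 6.05%. For NSCL61 minus NSC, 8 of 79 members were higher, beside 14.4% of all genes, and 4 were lower, beside 14.0%. The medians of the members in these comparisons were -0.15 (all genes -0.10) and 0.08 (all genes 0.03). The members' shares were 7.69% higher and 1.28% lower with Ceacam1L, and 10.1% higher and 5.06% lower between NSCL61 and NSC. The comparison of NSCL61 with NSC shares an array with each of the others and is not independent of them. From 1.5-fold, 16 members were higher and 29 lower with the hairpin, beside 33.3% and 33.1% of all genes, and from 3-fold 2 were higher and 5 lower, beside 15.1% and 16.8%. With Ceacam1L, 8 were higher and 10 lower from 1.5-fold, beside 17.1% and 16.8%, and 1 was higher and 0 lower from 3-fold, beside 5.99% and 2.4%. The 1 member at 3-fold was Kdm4d, a dim gene for which no bound can be given. Between NSCL61 and NSC, 13 were higher and 8 lower from 1.5-fold, beside 23.3% and 21.9%, and 4 were higher and 1 lower from 3-fold, beside 8.85% and 9.07%. Over the 3 comparisons, 43 members were called in none, 37 in at least 1, and 3 in all of them: Tet1, Kdm4d and Smarca1. The same counts were not made over all named genes, so these cannot be set beside a share of all genes.

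**Figure D1:**
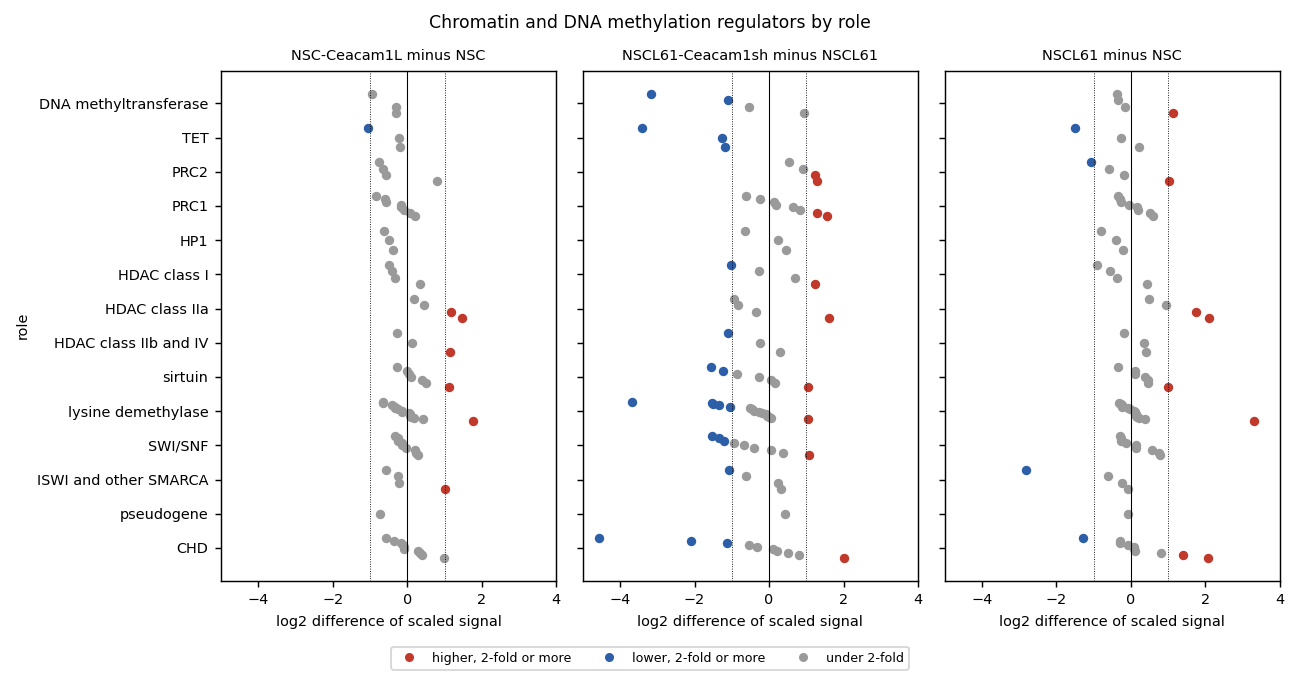
Log2 difference of scaled signal for each evaluated member, grouped by role, in the 3 comparisons (1 array against 1 array; dotted lines at 2-fold). The hairpin comparison has 10 members to the right of the 2-fold lines and 21 to the left, and its 3 TET points all lie to the left.

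The choice of scaling sets where 0 lies. Scaling the arrays on their medians moved the all-gene median of the hairpin comparison to 0.43, and scaling on the 8 spike-in control probes moved it to 0.44. The members' median was 0.28 below that of all genes under both, as in the reported values. This gap could not change, since both scalings shift all genes of an array alike. Median and spike-in scaling called 16 members higher and 9 lower in each case. Over 15613 genes evaluated, median scaling called 5198 higher and 2874 lower, and spike-in scaling 5267 and 2852. Higher calls were thus 64.0% of the members' calls under both, beside 64.4% and 64.9% for all genes. Under spike-in scaling the all-gene median was 0.27 for NSC-Ceacam1L minus NSC and -0.20 for NSCL61 minus NSC.

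Other gene groups moved with these comparisons, and their part in the results below was not tested. Of 20 proliferation genes, all 20 were higher in NSCL61-Ceacam1sh than in NSCL61 (median difference 3.11), and all 20 were lower in NSCL61 than in NSC (median -2.34). In NSC-Ceacam1L, 15 of the 20 were lower than in NSC and none was higher (median -1.12). Neural stem cell markers were well above background for 9 of 12 genes on NSCL61-Ceacam1sh, 11 on NSCL61, 12 on NSC-Ceacam1L and 12 on NSC. Hes5, Olig2 and Nr2e1 were the ones missing from NSCL61-Ceacam1sh, and Prom1 was missing from NSCL61. The mean level of the 12 was -2.05 on NSCL61-Ceacam1sh, against 2.70 on NSCL61, and 3.18 on NSC-Ceacam1L, against 3.26 on NSC. The 8 astrocyte markers had mean levels of -1.79 on NSCL61-Ceacam1sh, against 4.96 on NSCL61. They stood at 4.94 on NSC-Ceacam1L, against 2.03 on NSC. Of the 8 fibroblast or mesenchymal markers, 6 were higher and 1 was lower in NSCL61-Ceacam1sh than in NSCL61, and Dcn, not well above background on NSCL61, was at least 248-fold higher. All 6 neuron markers evaluated in that comparison were lower. Of 8 microglia or macrophage markers, 3 were well above background on NSCL61-Ceacam1sh, 5 on NSCL61, 3 on NSC-Ceacam1L and 3 on NSC. In RNA from whole cultures, fewer cells of a type and less RNA per cell cannot be told apart.

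The DNA methyltransferases parted in the hairpin comparison. Dnmt3a, the de novo enzyme, had a level of -0.49 on NSCL61-Ceacam1sh, against 2.68 on NSCL61. It was 8.99-fold lower with the hairpin (-3.17 ± 0.20), while the other 3 arrays lay close together, with 2.53 on NSC-Ceacam1L and 2.84 on NSC. The probe is at chr12:3914320-3914379 on the plus strand. Dnmt3b, its paralogue, differed by less than 2-fold in every comparison on the probe used, but with the hairpin its 2 other probes gave -1.29 and -0.37, one of them past 2-fold. On the probe used its levels were -1.68 on NSCL61-Ceacam1sh, against -1.15 on NSCL61, and -1.07 on NSC-Ceacam1L, against -0.78 on NSC. Dnmt1 moved the other way from Dnmt3a. It stood at 1.97 on NSCL61-Ceacam1sh, against 1.02 on NSCL61, and at 0.42 on NSC-Ceacam1L, against 1.37 on NSC. Both differences fell just short of 2-fold, at 0.95 ± 0.20 for the hairpin and -0.95 ± 0.20 for Ceacam1L. The hairpin difference passed 2-fold under 2 of 8 other settings, median and spike-in scaling. Dnmt3l, a partner of the de novo enzymes with no catalytic activity of its own, was well above background on NSCL61 alone, with a level of -3.30. It was 2.15-fold lower in NSCL61-Ceacam1sh than in NSCL61 as measured (-1.10 ± 0.38), a call that 5 of 8 other settings lost. Its signal on NSCL61-Ceacam1sh was not well above background, so this fold is not exact. Against NSC, NSCL61 was at least 1.96-fold higher in Dnmt3l, which leaves its call at 2-fold (1.14 ± 0.46) resting on a signal not well above background.

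All 3 TET genes were lower by 2-fold or more with the hairpin, beside 24.2% of all genes lower. Tet1, at chr10:62274448-62274507 on the minus strand, had levels of -3.00 on NSCL61-Ceacam1sh, against 0.41 on NSCL61. It was 10.6-fold lower (-3.41 ± 0.23) with the hairpin. It had 0.86 on NSC-Ceacam1L, against 1.90 on NSC, and was 2.06-fold lower (-1.04 ± 0.20). NSCL61 was in turn 2.81-fold below NSC (-1.49 ± 0.20). Tet1 was thus highest in NSC and lowest in NSCL61-Ceacam1sh. The Ceacam1L call was lost under 6 of 8 other settings, whereas the other calls of Tet1 held under all 8. Another probe well above background on both arrays gave -1.35 in the hairpin comparison, and the third was not well above background on NSCL61-Ceacam1sh. Tet2 was 2.28-fold lower with the hairpin, at -0.01 on NSCL61-Ceacam1sh, against 1.18 on NSCL61. Tet3 was 2.42-fold lower, at -2.17 on NSCL61-Ceacam1sh, against -0.90 on NSCL61. The calls of Tet2 and Tet3 were lost under median and spike-in scaling, and that of Tet3 also under normexp background correction. Both genes differed little between NSC-Ceacam1L and NSC, by -0.23 ± 0.20 for Tet2 and -0.20 ± 0.21 for Tet3.

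The core of PRC2 was higher with the hairpin, with 4 of 4 differences above 0 and 2 past 2-fold on the probes used. Over all named genes, 7866 of 15613 evaluated were above 0 and 23.5% were higher by 2-fold or more. For Ezh1 the probe used gave 0.54 and the next brightest gave 0.51. A dimmer probe, at -4.02 on NSCL61-Ceacam1sh and -2.64 on NSCL61, went the other way, at -1.39. The remaining probe gave 0.52 but was not well above background on NSCL61. Suz12, the scaffold subunit, had a level of 2.64 on NSCL61-Ceacam1sh, against 1.34 on NSCL61, a 2.46-fold difference (1.30 ± 0.20). Eed, which binds trimethylated histone H3, had 4.30 on NSCL61-Ceacam1sh, against 3.08 on NSCL61, a 2.33-fold difference. Quantile normalization put Eed just under 2-fold, at 0.99. Ezh2, the main methyltransferase of dividing cells, had 2.83 on NSCL61-Ceacam1sh, against 1.92 on NSCL61, and its difference of 0.91 ± 0.20 passed 2-fold under median and spike-in scaling only. Between NSCL61 and NSC the 2 enzymes of the complex went opposite ways. Ezh2 was 2.09-fold lower in NSCL61 than in NSC, at 1.92 against 2.98, and kept this call in all 8 other settings. Ezh1, the alternative enzyme known from cells that divide little, was 2.05-fold higher, at 2.31 in NSCL61 against 1.27 in NSC, and lost the call in 3 of the 8. In NSC-Ceacam1L the same pair was also split, at 0.79 ± 0.20 for Ezh1 and -0.77 ± 0.20 for Ezh2 relative to NSC, neither past 2-fold. Ezh1 passed it under 3 other settings. Eed and Suz12 were at -0.57 and -0.65 in that comparison.

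Of the 8 PRC1 genes, 2 were higher with the hairpin and none was lower, beside 23.5% of all genes higher and 24.2% lower. The share of PRC1 genes called higher was thus near that of all genes. Cbx2, a chromodomain subunit, stood at 1.53 on NSCL61-Ceacam1sh, against -0.02 on NSCL61, and was 2.92-fold higher (1.55 ± 0.20). Cbx8 stood at 1.12 on NSCL61-Ceacam1sh, against -0.16 on NSCL61, and was 2.43-fold higher (1.28 ± 0.20). Both held under all 8 other settings. Cbx6 and Cbx7, further chromodomain subunits, were under 2-fold, with differences of 0.83 and -0.25. Cbx6 passed 2-fold under median and spike-in scaling and on another of its probes, at 1.19. The sign of Cbx7 changed in 4 of 8 settings. Bmi1, a RING-finger protein known for sustaining neural stem cell self-renewal, was under 2-fold in every comparison, at 2.95 on NSCL61-Ceacam1sh, against 2.83 on NSCL61, and at 2.60 on NSC-Ceacam1L, against 3.17 on NSC (-0.56 ± 0.20). With the hairpin its other probe gave -0.62, beside 0.12 ± 0.20 on the one used. The ubiquitin ligases Ring1 and Rnf2 differed by -0.61 ± 0.21 and 0.18 ± 0.20 with the hairpin. With Ceacam1L no PRC1 gene passed 2-fold, beside 10.5% of all genes higher and 6.05% lower. Between NSCL61 and NSC none did either, beside 14.4% of all genes higher and 14.0% lower. The lowest PRC1 value with Ceacam1L was -0.85 for Cbx2. The HP1 proteins Cbx1, Cbx3 and Cbx5, which bind methylated lysine on histone H3 in heterochromatin, were past 2-fold in no comparison on the probes used, between -0.64 and 0.45 with the hairpin. A second probe of Cbx5 was just past it, at -1.04.

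**Figure D2:**
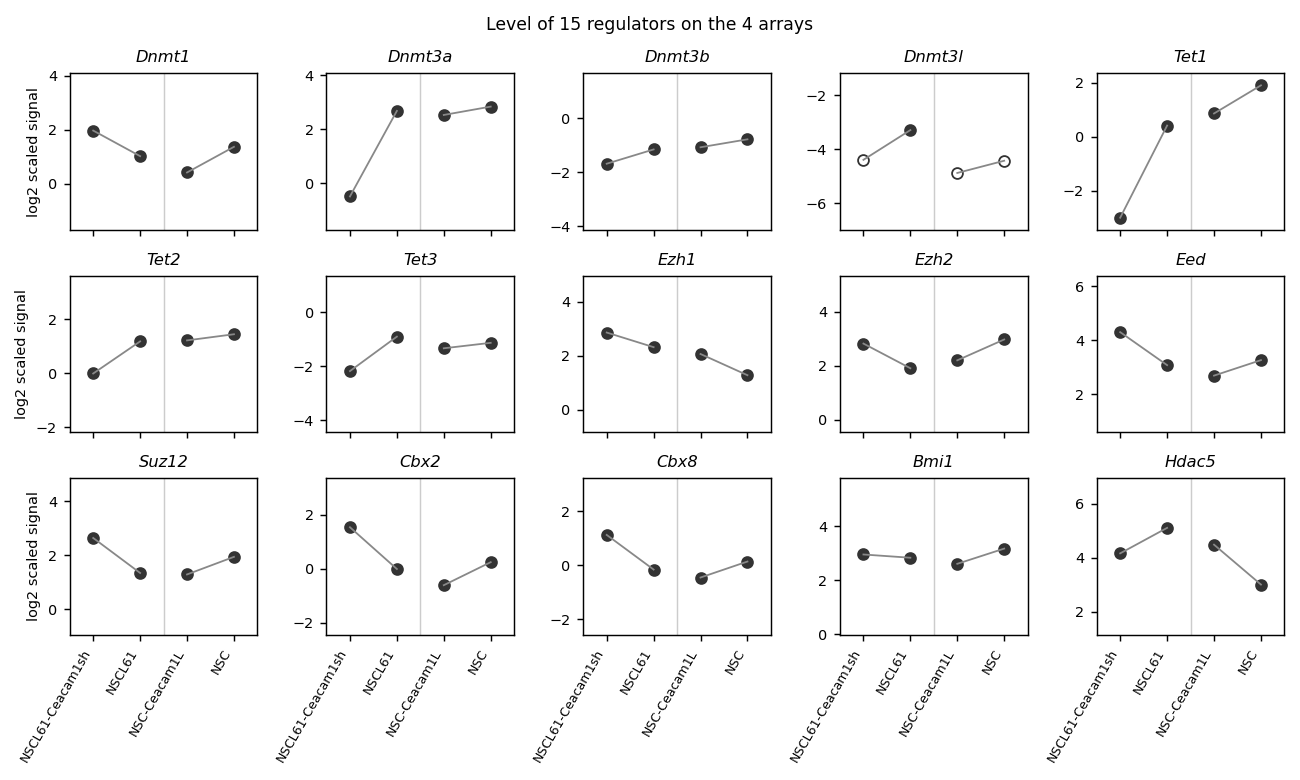
Level (log2 scaled signal, 0 = the array's 75th percentile) of 15 members on the 4 arrays; the axes of the panels span the same range but start at different levels, lines join the 2 arrays of each Ceacam1 comparison, and open circles were not well above background. Dnmt3a drops to -0.49 and Tet1 to -3.00 on NSCL61-Ceacam1sh, while Suz12, Cbx2 and Cbx8 are highest there.

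Dnmt1, Ezh2 and Suz12, picked out after their values were seen, had differences of the same signs: higher with the hairpin than in NSCL61, and lower with Ceacam1L than in NSC. Their differences were 0.95, 0.91 and 1.30 for the hairpin and -0.95, -0.77 and -0.65 for Ceacam1L, of which Suz12 with the hairpin passed 2-fold. They are 3 of 25 members with these signs, among 78 evaluated in both comparisons (32.1%, against 34.9% of all named genes), and Eed, a partner of Suz12, is another. Their promoters are shown because each holds letters known as a binding sequence of E2F factors, which act on genes of the cell cycle. The search covered TTTCCCGC, TTTCGCGC, TTTGCCGC and TTTGGCGC on both strands, as non-degenerate 8-letter words. RefSeq promoters on GRCm38.p6, from 250 bases before to 50 after the start, were found for 64 of the 80 genes (88 promoters). The words occurred in 6 of these 88 (6.82%), against 744 of 32851 promoters in all (2.26%). The member promoters also held more CpG dinucleotides, a median of 23 against 7. Eed and Cbx8, higher with the hairpin as well, had a promoter in the table without these words. The 6 genes were Dnmt1, Ezh2, Suz12, Cbx3, Sirt4 and Smarcd1, and the last 3 differed by 0.45, -1.24 and -0.95 with the hairpin. The windows are chr9:20952574-20952873 (minus strand), chr6:47594981-47595280 (minus strand) and chr11:79992856-79993155 (plus strand), and capitals mark the words found. In Dnmt1 they begin at -219 and 34 from the start, in Ezh2 at 4 and in Suz12 at -219. A match describes the letters and does not show that a factor binds there.
Dnmt1: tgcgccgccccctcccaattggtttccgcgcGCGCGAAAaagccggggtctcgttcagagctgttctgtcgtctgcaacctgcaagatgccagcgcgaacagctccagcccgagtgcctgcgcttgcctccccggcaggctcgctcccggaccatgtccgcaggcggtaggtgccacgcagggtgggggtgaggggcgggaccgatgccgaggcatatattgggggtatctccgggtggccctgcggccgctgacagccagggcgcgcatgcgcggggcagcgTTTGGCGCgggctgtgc
Ezh2: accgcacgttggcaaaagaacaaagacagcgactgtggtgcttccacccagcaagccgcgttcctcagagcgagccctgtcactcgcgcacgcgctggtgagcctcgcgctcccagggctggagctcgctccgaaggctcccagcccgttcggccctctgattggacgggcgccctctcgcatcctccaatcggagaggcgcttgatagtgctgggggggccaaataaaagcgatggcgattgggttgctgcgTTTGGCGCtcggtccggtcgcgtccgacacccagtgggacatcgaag
Suz12: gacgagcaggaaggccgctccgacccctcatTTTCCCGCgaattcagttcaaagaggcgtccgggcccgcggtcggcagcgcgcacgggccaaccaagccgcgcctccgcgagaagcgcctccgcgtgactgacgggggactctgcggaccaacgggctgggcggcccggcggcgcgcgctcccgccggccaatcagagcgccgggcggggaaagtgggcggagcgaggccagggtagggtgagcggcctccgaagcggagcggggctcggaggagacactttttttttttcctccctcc

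Class I histone deacetylases are mainly nuclear enzymes, of which Hdac1 and Hdac2 work in the Sin3, NuRD and CoREST complexes. Hdac1 was higher with the hairpin, at 6.55 on NSCL61-Ceacam1sh, against 5.31 on NSCL61 (2.36-fold). All 3 of its probes gave close values, from 1.24 to 1.32. Hdac8 was 2.03-fold lower, at -1.26 on NSCL61-Ceacam1sh, against -0.24 on NSCL61, just past the 2-fold line. Neither call held under every other setting: Hdac1 lost it in 2 of 8 and Hdac8 in 5. Hdac2, printed 10 times on each array, differed by -0.26 with the hairpin, and its 10 spots had an SD of 0.05 on NSCL61-Ceacam1sh and 0.06 on NSCL61.

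Class IIa deacetylases shuttle between nucleus and cytoplasm and bind MEF2 factors. In NSC-Ceacam1L minus NSC all 4 differences were above 0 and 2 passed 2-fold, beside 6502 of 15313 named genes above 0 and 10.5% higher. NSCL61 minus NSC, which shares the NSC array, gave the same counts, beside 7918 of 15299 named genes above 0 and 14.4% higher. Hdac5 was the larger, at 4.48 on NSC-Ceacam1L, against 3.0 on NSC (2.78-fold, 1.48 ± 0.20), and at 5.10 on NSCL61 (4.29-fold above NSC, 2.10 ± 0.20). Both calls held under all 8 other settings. Hdac9 stood at -1.41 on NSC-Ceacam1L, against -2.58 on NSC (2.25-fold), and NSCL61 with -0.85 was 3.34-fold above NSC. With the hairpin both were lower without passing 2-fold, at -0.94 ± 0.20 for Hdac5 and -0.84 ± 0.21 for Hdac9. Hdac7 went apart from them and was 3.05-fold higher, at 4.08 on NSCL61-Ceacam1sh, against 2.47 on NSCL61 (1.61 ± 0.20). NSCL61 was just short of 2-fold above NSC in Hdac7 (0.96). Hdac11, the class IV enzyme, was 2.22-fold higher with Ceacam1L, at -1.29 on NSC-Ceacam1L, against -2.44 on NSC. It was 2.15-fold lower with the hairpin, at -3.18 on NSCL61-Ceacam1sh, against -2.08 on NSCL61. The first of these held in 7 of 8 other settings and the second in 3.

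Sirtuins are NAD-dependent deacylases. Sirt2, a mainly cytoplasmic tubulin deacetylase abundant in myelin, was lower with the hairpin and higher with Ceacam1L. Its levels were 2.29 on NSCL61-Ceacam1sh, against 3.85 on NSCL61 (2.95-fold lower, -1.56 ± 0.20), and 4.52 on NSC-Ceacam1L, against 3.39 on NSC (2.19-fold higher, 1.13 ± 0.20). Both calls held under all 8 other settings. Of 8 oligodendrocyte lineage markers, 1 was higher and 5 were lower with the hairpin, and 3 were higher and 0 lower with Ceacam1L; their part in the values of Sirt2 was not tested. The mitochondrial Sirt5 was 2.06-fold higher with the hairpin, at 1.31 on NSCL61-Ceacam1sh, against 0.27 on NSCL61, close to the threshold. Sirt1, a nuclear deacetylase, was 2.01-fold higher in NSCL61, at 1.90 against 0.90 in NSC (1.01 ± 0.20), and 4 of 8 other settings lost the call. Of the 7 sirtuins, 1 was higher and 2 were lower with the hairpin, the other lower one being the mitochondrial Sirt4. These are 14.3% and 28.6%, beside 23.5% and 24.2% of all genes, so the lower share is near theirs.

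Lysine demethylases were mostly below 0 in the hairpin comparison, with 13 of 15 evaluated genes negative, 5 past 2-fold lower and 1 higher. These calls are 33.3% and 6.67% of the 15, beside 24.2% of all genes lower and 23.5% higher. Over all named genes 49.6% were negative. The majority depends on where 0 lies: under median and under spike-in scaling 7 of the 15 were negative, 3 past 2-fold lower and 1 higher, beside 37.5% and 37.1% of all genes negative. Kdm4b, which acts on methylated lysine 9 of histone H3, was 2.88-fold lower, at 1.70 on NSCL61-Ceacam1sh, against 3.23 on NSCL61 (-1.52 ± 0.20). Kdm6b, which removes the mark that PRC2 sets, was 2.82-fold lower, at 1.10 on NSCL61-Ceacam1sh, against 2.59 on NSCL61 (-1.50 ± 0.20). Kdm5b, a demethylase of lysine 4, was 2.55-fold lower, at 3.27 on NSCL61-Ceacam1sh, against 4.63 on NSCL61 (-1.35 ± 0.20). These 3 genes were under 2-fold in the other comparisons, between -0.33 and 0.15. The 3 probes of Kdm5b measured on both arrays gave -1.35, -1.35 and -1.76 with the hairpin, and the fourth was not well above background on NSCL61-Ceacam1sh. Kdm3a was 2.07-fold lower, at 2.33 on NSCL61-Ceacam1sh, against 3.38 on NSCL61. The calls of Kdm5b and Kdm3a were lost under median and spike-in scaling. Kdm3b, its paralogue, was called higher (1.05 ± 0.21), but another of its probes well above background gave -0.53, so its direction depends on the probe. Kdm6a, the X-linked relative of Kdm6b, differed by -0.20 ± 0.21 with the hairpin and 0.42 ± 0.21 with Ceacam1L. Kdm5c, X-linked as well, stood at 3.52 on NSCL61-Ceacam1sh, against 3.53 on NSCL61, and at 3.52 on NSC-Ceacam1L, against 3.85 on NSC.

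Kdm4d, a demethylase of lysine 9 known for its expression in testis, was dim throughout. It was well above background on NSCL61, with a level of -2.85, and on NSC-Ceacam1L, with -4.37. It was not on NSCL61-Ceacam1sh, with -6.52, nor on NSC, with -6.14. The bounds are at least 3.74-fold lower in NSCL61-Ceacam1sh than in NSCL61, and at least 2.68-fold higher in NSCL61 than in NSC. For NSC-Ceacam1L over NSC the measured difference was 1.77 ± 1.48. No bound can be given there, because the dimmest signal well above background on NSC, -4.27, was brighter than Kdm4d on NSC-Ceacam1L.

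Of the 9 SWI/SNF subunits, 1 was higher and 3 were lower with the hairpin, and none passed 2-fold in the other comparisons. These hairpin counts are 11.1% and 33.3% of the subunits, beside 23.5% and 24.2% of all genes. The shares of all genes were 10.5% higher and 6.05% lower with Ceacam1L, and 14.4% and 14.0% for NSCL61 minus NSC. The catalytic subunits, of which each complex holds one, were under 2-fold in every comparison. Smarca4 had 6.19 on NSCL61-Ceacam1sh, against 6.14 on NSCL61, and 6.20 on NSC-Ceacam1L, against 6.44 on NSC. Smarca2 had 0.61 on NSCL61-Ceacam1sh, against 1.01 on NSCL61, and 1.44 on NSC-Ceacam1L, against 1.14 on NSC. The Smarcd subunits are alternatives for the same place in the complex, and they differed among themselves. Smarcd2 was 2.09-fold higher with the hairpin (1.06 ± 0.20), a call lost under normexp correction and with the mean over its probes. Smarcd3, the form known from heart, muscle and nerve cells, was 2.88-fold lower, at 1.06 on NSCL61-Ceacam1sh, against 2.59 on NSCL61 (-1.53 ± 0.20), and held under all 8 other settings. Smarcd1 was at -2.24 on NSCL61-Ceacam1sh, against -1.29 on NSCL61, just under 2-fold lower (-0.95 ± 0.22). The other 2 lower subunits were the core proteins Smarcb1 (-1.20 ± 0.20) and Smarcc2 (-1.34 ± 0.21), named after their values were seen. Their calls were lost under median and spike-in scaling. Smarcc1, another core protein, depends on the probe, with 0.37 on the one used and 1.79 and 2.17 on others.

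Smarca1, an ISWI motor protein known from postmitotic neurons, was lower on both NSCL61 arrays than on both NSC arrays. It was 6.98-fold lower in NSCL61 than in NSC, at -3.27 against -0.46 (-2.80 ± 0.23), under all 8 other settings too. With Ceacam1L it was 2.02-fold higher, at 0.55 on NSC-Ceacam1L, against -0.46 on NSC. With the hairpin it was 2.10-fold lower, at -4.34 on NSCL61-Ceacam1sh, against -3.27 on NSCL61. The last 2 calls were close to 2-fold and were lost in 2 and 6 of 8 other settings. Its paralogue Smarca5 was past 2-fold in no comparison, with 4.10 on NSCL61-Ceacam1sh, against 3.78 on NSCL61, and 3.28 on NSC-Ceacam1L, against 3.85 on NSC. Smarca5-ps, a pseudogene of Smarca5, had differences of the same sign, and whether its probe also reads Smarca5 is uncertain.

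The CHD remodellers lay on both sides of 0 in the hairpin comparison. Chd5, a neuronal subunit of NuRD-type complexes known as a tumour suppressor in mouse, was not well above background on NSCL61-Ceacam1sh. It had -5.61 there, against -1.04 on NSCL61, and was at least 13.1-fold lower. NSCL61 was 4.18-fold above NSC in Chd5, at -1.04 against -3.10 (2.06 ± 0.27). NSC-Ceacam1L, with -2.11, lay just short of 2-fold above NSC (0.99 ± 0.28). Chd7, a remodeller needed for neurogenesis from adult neural stem cells in mouse, was level on 3 arrays and low on the fourth. It had 2.84 on NSCL61-Ceacam1sh, against 4.94 on NSCL61 (4.27-fold lower, -2.09 ± 0.20), and 4.75 on NSC-Ceacam1L, against 4.82 on NSC. Chd1, which binds trimethylated lysine 4 of histone H3 and is known for keeping embryonic stem cell chromatin open, was 4.05-fold higher with the hairpin. It had -0.44 on NSCL61-Ceacam1sh, against -2.46 on NSCL61 (2.02 ± 0.21), the largest positive difference among the members on the probes used. Chd9 was 2.64-fold higher in NSCL61, at 1.71 against 0.31 in NSC, and 2.20-fold lower with the hairpin, at 0.57 on NSCL61-Ceacam1sh, against 1.71 on NSCL61. The second of these calls was lost under median and spike-in scaling. Chd1l, a PARP-activated remodeller, was 2.43-fold lower in NSCL61, at 0.15 against 1.43 in NSC. Chd4, the NuRD motor, and Kdm4c, each read by 1 probe, varied little, over ranges of 0.23 and 0.27 across the 4 arrays.

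**Figure D3:**
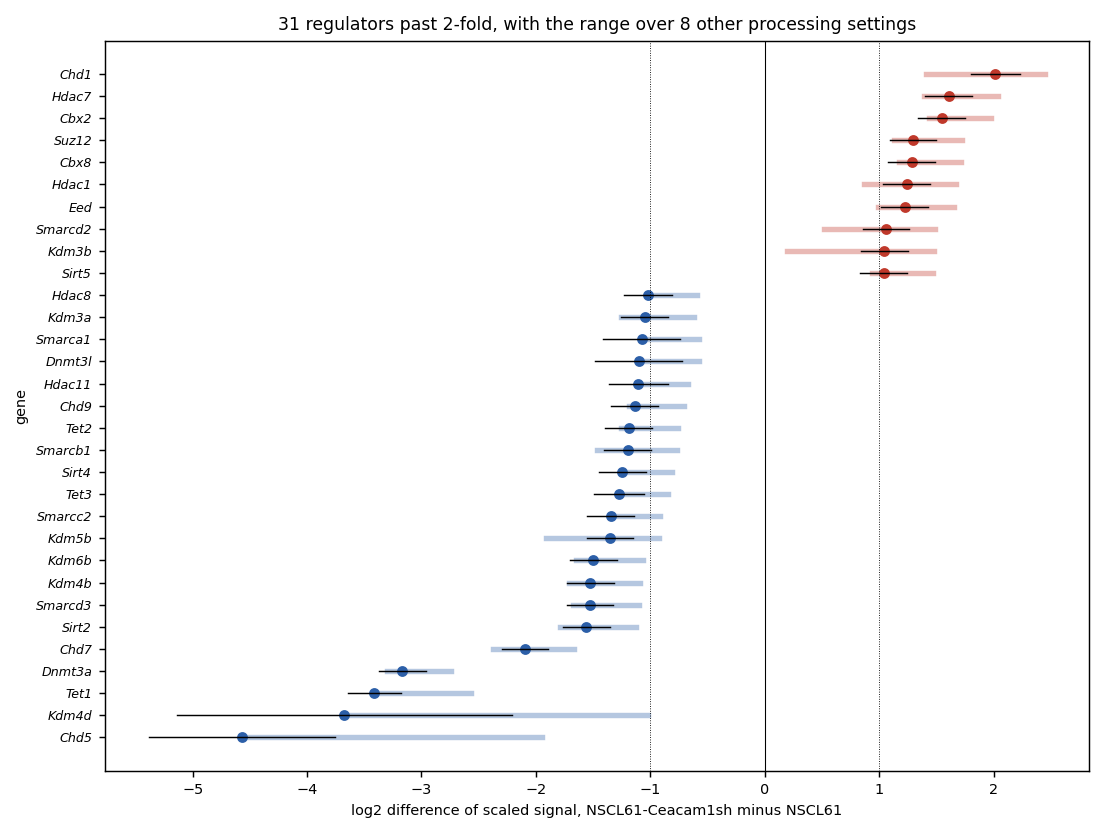
The 31 members past 2-fold in NSCL61-Ceacam1sh minus NSCL61: points give the log2 difference, black lines the modelled spot error, and pale bars the range over the 8 other settings. Chd5 and Kdm4d were not well above background on NSCL61-Ceacam1sh, so their points are not exact. Among members measured on both arrays Tet1 and Dnmt3a lie farthest to the left, and all 31 pale bars stay on their own side of 0.

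The Ceacam1 comparisons rest on separate pairs of arrays. They called 5 members in common, of the 7 called with Ceacam1L and the 31 called with the hairpin. Among the 78 members evaluated in both, the 5 are 71.4% of the Ceacam1L calls and 16.7% of the hairpin calls, beside 74.2% and 22.0% over all named genes. The shares of the members are near those of all genes. Hdac11, Sirt2 and Smarca1 were higher in NSC-Ceacam1L than in NSC and lower in NSCL61-Ceacam1sh than in NSCL61. Kdm4d was called in the same directions, but it was not well above background on NSC and has no bound there, so its Ceacam1L call is uncertain. Tet1 was lower in both. No member was higher in both, and none was lower with Ceacam1L and higher with the hairpin. Another 10 members were higher and 16 were lower with the hairpin alone, and Hdac5 and Hdac9 were higher with Ceacam1L alone. Whether the effects differ between the comparisons could not be tested. Under the 8 other settings no called member changed sign. With the hairpin, 5 of the 10 higher and 9 of the 21 lower calls held in all 8. With Ceacam1L, 2 of 6 higher and 0 of 1 lower did, and between NSCL61 and NSC 4 of 8 higher and 4 of 4 lower did.

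Genes with several probes well above background show how far calls rest on the probe. Of 8 such genes called with the hairpin, 6 were past 2-fold on every probe, and 1, Kdm3b, had probes on both sides of 0. Of 22 uncalled genes with several such probes, 6 had another probe past 2-fold with the hairpin: Dnmt3b, Ezh1, Cbx6, Cbx5, Smarcc1 and Smarcal1, which was at 0.24 on the probe used and -1.65 on another. With Ceacam1L 1 of 2, and between NSCL61 and NSC 2 of 3, were past 2-fold on every probe.

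**Figure D4:**
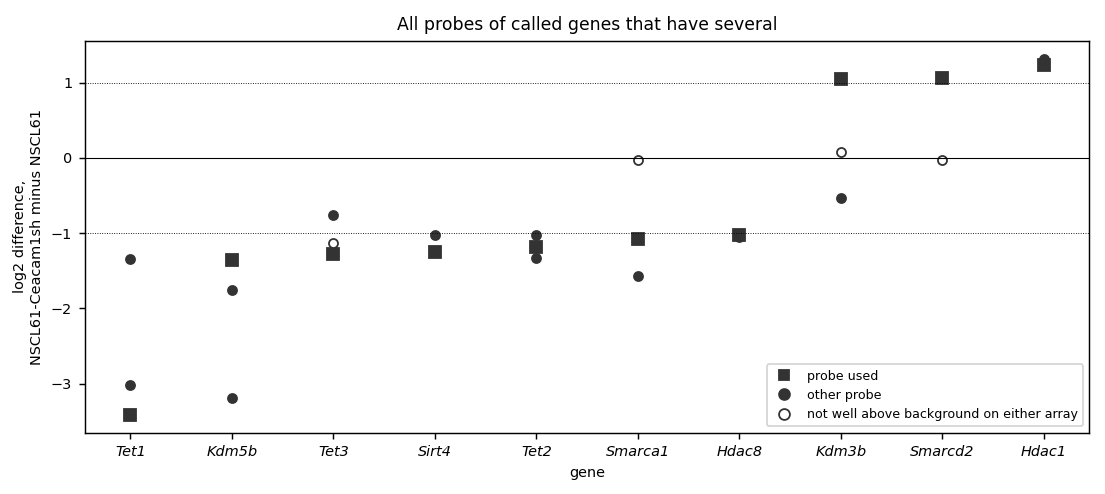
Log2 difference in NSCL61-Ceacam1sh minus NSCL61 of every probe of called genes that have several (squares, the probe used; filled circles, other probes; open circles, not well above background on either array; dotted lines at 2-fold). Kdm3b has probes at 1.05 and -0.53, while the 3 Hdac1 probes lie within 1.24 to 1.32.

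Genes that work with these enzymes were counted from lists of partners, to be read beside the 23.5% of all genes higher and 24.2% lower with the hairpin. Of 19 polycomb accessory genes, 8 were higher and 1 was lower with the hairpin (42.1% and 5.26%, median 0.90). The largest were Phf1 (2.40) and Scmh1 (2.15), and the lower one was Jarid2 (-2.12), a PRC2 cofactor. Of 28 histone methyltransferases, 10 were higher and 4 lower (35.7% and 14.3%). Suv39h1, an enzyme for lysine 9 of histone H3, was at 2.01 and Kmt5a at 1.93, whereas Kmt2c was at -1.72 and Kmt5c at -1.46. Of 14 methyl-CpG and DNA methylation partners, 3 were higher (21.4%) and 0 lower. Hells, a remodeller needed for DNA methylation, was at 3.93 and Uhrf1, which brings Dnmt1 to hemimethylated DNA, at 3.24. Both are also known as replication-linked genes and were lower with Ceacam1L, at -1.45 and -1.33, and in NSCL61 relative to NSC, at -2.13 and -2.34. Of 10 acetyltransferases, 2 were higher and 1 lower with the hairpin (20.0% and 10%, below the shares of all genes), with Hat1 at 2.78, Kat2a at 1.44 and Kat6b at -1.25. Of 18 deacetylase complex genes, 3 were higher and 1 lower (16.7% and 5.56%), including Mta3 (2.20), Rcor1 (1.32) and Rcor2 (-2.20). Of 27 SWI/SNF and ISWI partners, 5 were higher and 5 lower (18.5% each, below the shares of all genes). Hells and Baz1a (1.85) were the largest higher ones. Dpf3 and Cecr2 were not well above background on NSCL61-Ceacam1sh. Dpf3 was lower by at least 4.33-fold and Cecr2 by at least 2.72-fold. With Ceacam1L none of these lists had a gene higher by 2-fold, and between 0 and 3 genes of each were lower. Over all genes 10.5% were higher and 6.05% lower in that comparison.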

How the data were processed

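Total RNA of 4 cultures was labelled with Cy3 from 0.5 µg and read on 1 array each, per the labels' protocols. The deposited intensity values are processed signals, background-subtracted and detrended by the authors. The file headers give protocol GE1_107_Sep09 of Agilent Feature Extraction, version 10.7.3.1. The submitters' processing notes name version 9.1. The NSC file holds values of at most 3 significant digits and some altered gene names, so names came from the NSCL61 file. The deposited table holds log2 values by the authors. Its differences between arrays follow those of the scanner signals with slopes of 1.00, so scale and direction are settled. Its centring is unknown, with column medians of 0.03, 0.00, -0.20 and 0.25 for NSCL61-Ceacam1sh, NSCL61, NSC-Ceacam1L and NSC.

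Each of 59305 non-control spots per array was put on the log2 scale minus the array's 75th percentile. Between 143 and 187 outlier spots per array were dropped and repeated spots averaged. A probe was well above background where at least 50% of its spots were. Each gene took the probe with the highest mean signal and was evaluated where well above background on at least 1 array of the pair. A gene not well above background on the dimmer array has a bound ("at least N-fold") against the brighter of its own signal and the dimmest signal well above background there. The number of arrays limits the precision, as does signal near background for dim genes, and with 1 per group no p-value exists. The call rule was tested on simulated data. Tools were Python 3.11.15, R 4.3.3 and limma 3.58.1.

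Groups came from the sample titles. The rule for the members uses names alone, but the members, role groups, marker lists and partner lists were chosen with earlier results of these data known. By the naming rule the text names, per comparison and direction, the 10 largest called members, every DNA methyltransferase, TET, PRC2 and PRC1 gene (1 of them is not reported here), Kdm5c, Kdm5d, Kdm6a, Smarca2, Smarca4, Smarcd1, Smarcd3, and up to 3 members on each side of 2-fold, and for partner lists the 2 largest per direction. Across settings, 12 alternatives were tried, of which 8 apply to single members. Some of the 8 could hardly change a call. For the 47 members with 1 probe, the mean over probes repeats the reported value. Keeping outlier spots called 3662 of all genes higher and 3784 lower with the hairpin, beside 3663 and 3784 as reported. The deposited table follows the scanner signals closely. The files' coordinates are on mm9, and no exon or UTR annotation of that build was used here.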

Additional observations from a re-analysis of the deposited data

How the results depend on the processing

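No paired analysis was possible because each group has 1 array, and for the same reason no replicate could be left out. Of 102 summary values under the 12 alternatives, 72 stayed on the same side of 0 or within 1.5 times of the reported count. The median of the members changed sign in 7 cases, and the cause was not tested beyond the shift in scaling itself. For NSC-Ceacam1L minus NSC it was 0.0154 under quantile normalization, 0.12 with cyclic loess and 0.22 with spike-in scaling. For NSCL61 minus NSC it was -0.15 under spike-in scaling and -0.0187 with genes well above background on both arrays. For NSCL61-Ceacam1sh minus NSCL61 it was 0.15 with median and 0.17 with spike-in scaling. With Ceacam1L the count of higher members was 2 under normexp correction and 1 at 3-fold. The count of lower members, 1 as reported, was 0 under median, quantile, cyclic loess and spike-in scaling, normexp correction, a 3-fold threshold and the mean over probes, and 10 at 1.5-fold. Between NSCL61 and NSC the higher count was 5 under spike-in scaling, 4 under normexp correction, 13 at 1.5-fold and 4 at 3-fold, and the lower count 8 at 1.5-fold and 1 at 3-fold. With the hairpin the higher count was 16 under median scaling, spike-in scaling and at 1.5-fold and 2 at 3-fold, and the lower count 9 under median and spike-in scaling and 5 at 3-fold. Dim genes (Kdm4d, Dnmt3l and Chd5) are limited by signal over background.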
